A study of Homo sapiens with 6 samples.

Results

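The genes described here make, move and export cholesterol in A549, a widely used cell line from a human lung adenocarcinoma. They are 33 named genes of the mevalonate and sterol pathway, of its control by SREBP, and of sterol storage and efflux, found by symbol among the 58721 genes of the count table, and all 33 passed the filter on low counts. The 6 libraries of polyadenylated RNA come from 3 samples of A549 cells overexpressing the R98W form of KAT8 and 3 overexpressing wild-type KAT8 (WT), grown in the same medium with serum. KAT8 (MOF) adds acetyl groups to lysine on histone H4, and R98W replaces 1 amino acid in its Tudor-knot domain, going by the series' title. The sources used here do not give the vector, the promoter, whether a group is 1 clone or whether replicates were separate cultures, so a p-value reflects only how far these libraries spread, which may be technical.

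Cells build cholesterol from acetyl-CoA through mevalonate, isoprenoid diphosphates, squalene and lanosterol. When sterol in the endoplasmic reticulum runs low, SCAP escorts the SREBP factors to the Golgi, where they are cleaved, and the freed fragment turns on most genes of the synthesis chain, whereas INSIG proteins hold SCAP back when sterol is plentiful. The LXR receptors work in the opposite situation: activated by oxysterols, they turn on the transporters that export cholesterol. In epithelial cells of the lung, sterol and fatty acid synthesis also supplies membranes and surfactant lipid.

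Library totals ran from 101792328 to 108742650 counts in R98W and from 90007121 to 110152936 in WT. Summed over 9 markers of the line, the libraries held 34479 to 37731 CPM in R98W and 35287 to 36781 CPM in WT, while 7 blood, endothelial and fibroblast markers together gave 0.438 to 0.475 CPM in R98W and 0.565 to 0.906 CPM in WT. Single markers of the line differed by the test below: AKR1B10 was higher in R98W (log2 fold change 0.29). ALDH1A1 and EPCAM were lower (-0.20 and -0.86), EPCAM at only 3.92 CPM in R98W and 7.10 CPM in WT, and the other 6 did not pass. CPM is the count of a gene relative to its library's total after TMM scaling, a method that sets most genes to no change. KAT8 itself was at 166, 196 and 236 CPM in the R98W libraries, against 12.2, 195 and 184 CPM in the WT libraries. The library labelled WT replicate 1 stood far below the other 5, which goes against its label of overexpression. It is kept in what follows, and the counts of members called are also given without it. Mitochondrial ribosomal RNA took a share of counts that ran from 1.47% to 1.57% in R98W and from 0.905% to 1.04% in WT, and its part in the results below was not tested.

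Promoter sequences are shown because SREBP acts together with the CCAAT-binding factor NF-Y, and because LXR binds a direct repeat known as DR4. The stretches run 5′ to 3′ over the 220 bases before the annotated start, from RefSeq on GRCh38.p14. SREBF2 holds the searched letters of the sterol regulatory element and ABCA1 those of DR4, MSMO1, STARD4 and TM7SF2 are among the members with the largest rises, and INSIG1 is the feedback gene. Capitals mark TCACNCCAC, the core of the sterol regulatory element, and CCAAT in SREBF2, CCAAT in MSMO1, STARD4 and TM7SF2, CCAAT and the E-box CACGTG in INSIG1, and the DR4 core and CACGTG in ABCA1. Each may stand on either strand, so that CCAAT can read ATTGG. The SREBF2 stretch is chr22:41832885-41833104 on the plus strand, MSMO1 is chr4:165327449-165327668 on the plus strand, and STARD4 is chr5:111512536-111512755 on the minus strand. TM7SF2 is chr11:65111652-65111871 and INSIG1 is chr7:155297658-155297877, both on the plus strand, and ABCA1 is chr9:104928156-104928375 on the minus strand.
SREBF2: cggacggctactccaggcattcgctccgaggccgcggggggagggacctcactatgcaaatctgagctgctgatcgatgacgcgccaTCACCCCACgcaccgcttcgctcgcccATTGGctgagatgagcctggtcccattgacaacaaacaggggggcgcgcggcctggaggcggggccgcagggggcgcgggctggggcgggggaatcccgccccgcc
MSMO1: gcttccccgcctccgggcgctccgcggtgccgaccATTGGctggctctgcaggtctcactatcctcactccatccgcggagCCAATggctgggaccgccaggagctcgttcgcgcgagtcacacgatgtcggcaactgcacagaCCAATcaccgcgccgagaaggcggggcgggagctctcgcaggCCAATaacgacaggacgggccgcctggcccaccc
STARD4: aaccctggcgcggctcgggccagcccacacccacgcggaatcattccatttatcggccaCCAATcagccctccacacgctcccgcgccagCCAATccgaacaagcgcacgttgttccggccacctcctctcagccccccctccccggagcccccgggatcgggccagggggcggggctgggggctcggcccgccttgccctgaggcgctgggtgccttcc
TM7SF2: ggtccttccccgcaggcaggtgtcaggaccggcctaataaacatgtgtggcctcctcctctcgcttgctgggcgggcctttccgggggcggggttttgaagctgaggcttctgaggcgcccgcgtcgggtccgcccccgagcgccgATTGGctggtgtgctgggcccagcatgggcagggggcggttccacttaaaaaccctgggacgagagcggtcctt
INSIG1: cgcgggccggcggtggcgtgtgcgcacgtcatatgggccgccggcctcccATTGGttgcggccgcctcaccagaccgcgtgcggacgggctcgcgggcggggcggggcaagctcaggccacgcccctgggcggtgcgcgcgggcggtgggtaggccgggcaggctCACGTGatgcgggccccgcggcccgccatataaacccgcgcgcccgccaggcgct
ABCA1: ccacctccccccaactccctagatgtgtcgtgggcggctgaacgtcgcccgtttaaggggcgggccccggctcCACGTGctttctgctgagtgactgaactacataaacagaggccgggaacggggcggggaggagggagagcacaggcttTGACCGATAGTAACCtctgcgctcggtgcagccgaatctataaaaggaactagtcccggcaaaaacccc

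Promoter windows of 250 bases before to 50 bases after a start were found for 29 of the 33 members. The SREBP targets are a list of 21 members, chosen with earlier results of these data known. CCAAT stood in the windows of 16 of 18 of them (88.9%), against 42.2% of the 12688 tested genes with a window. GGGCGG, the GC box bound by Sp1, stood in 17 of the 18 (94.4%), against 73.3% of those tested genes. The sterol element core as searched was found in SREBF2 alone among the members, 133 bases before the start, and in 1.41% of the tested genes. The DR4 core stood in ABCA1, 69 bases before the start, and in a window of HMGCS1, against 0.701% of the tested genes. CACGTG stood in 5 of the 29 members with a window, against 12% of the tested genes with a window. No matches of different motifs overlapped in the members' windows. Of the 21 members with CCAAT, 17 were higher in R98W by the test below, and of the 8 without it 2 were, whereas among all tested genes 19.6% of those with CCAAT and 18.8% of those without were higher. Most members with CCAAT are SREBP targets, 16 of the 21, as are 2 of the 8 without it. Within the targets 14 of 16 with CCAAT and 1 of 2 without were higher. Whether CCAAT or the choice of targets goes with the calls was not tested. The 4 members with no window, ACAT2, FDFT1, SQLE and ABCG1, were all higher.

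Relative to the other counted RNA, the R98W libraries held more mRNA of the cholesterol synthesis chain than the WT libraries. Of the 33 members, 23 were higher and 2 were lower in R98W in edgeR's quasi-likelihood test, at an adjusted p under 0.05, and 8 did not pass. Over all 20713 tested genes 16.2% were higher and 18.5% lower. The median log2 fold change of R98W over WT was 0.28 for the members, against -0.0047 for all tested genes. The changes were moderate: no member reached 2-fold, and the extremes were TM7SF2 at 1.81-fold and NR1H3 at 0.547-fold. The R98W libraries lay wholly above the WT libraries for 22 members and wholly below for 4, where 21.3% and 24.2% of all tested genes did so. In bulk RNA, fewer cells expressing a gene and less of its RNA per cell cannot be told apart. Leaving out WT replicate 1 gave 22 higher and 3 lower members. The role counts given below were then the same in number, except that 1 of the enzymes after lanosterol, HSD17B7, was lower and 0 LXR targets were higher.

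**Figure D1:**
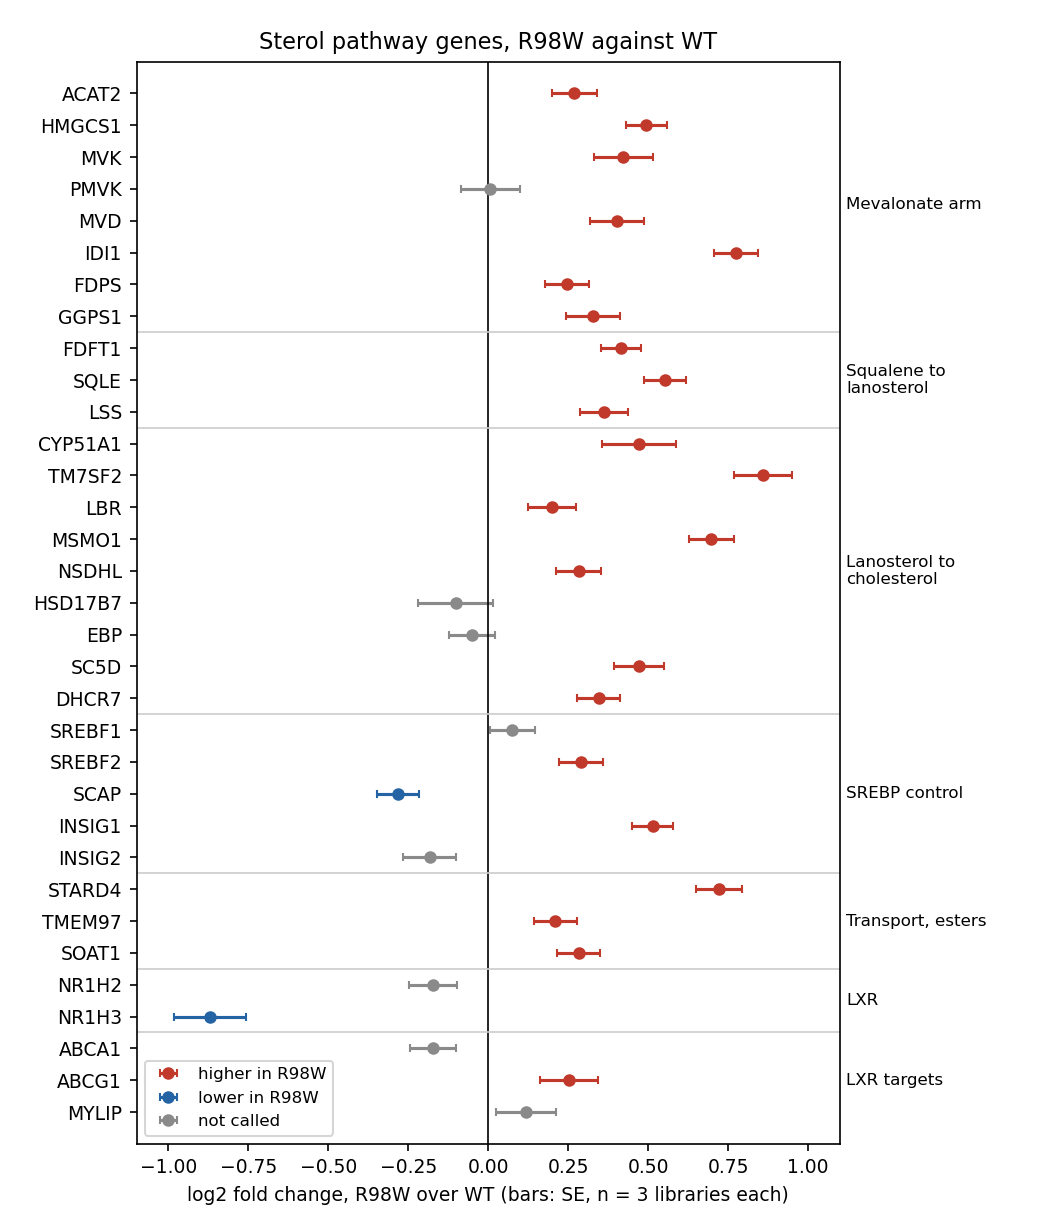
Log2 fold change of R98W over WT for the 33 members, in pathway order from top to bottom, with bars for the standard error from the edgeR fit (3 libraries each). Red points passed the threshold upward, blue points downward and grey points did not pass. The synthesis enzymes lie mostly to the right of 0, while SCAP and NR1H3 are the 2 blue points to its left.

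The members are mostly abundant mRNAs, and abundant genes as a whole were more often called higher in R98W than scarce ones. Of the 13 members at a mean over 64 CPM, 12 were higher and 0 lower, with a median log2 fold change of 0.35, whereas 40.4% of all tested genes at that level were higher and 9.41% lower, with a median of 0.13. Between 16 and 64 CPM, 10 of 16 members were higher and 1 lower, with a median of 0.28, against 23.7% higher, 22.6% lower and a median of 0.02 for all tested genes there. The 4 members between 4 and 16 CPM gave 1 higher and 1 lower, where 13.7% and 31.1% of all tested genes were so. Across the 33 members the log2 fold change and the mean log2 CPM had a Spearman rho of 0.22 and a Pearson r of 0.32, which describe genes of the same libraries, and over all tested genes the same rho was 0.20. After a loess correction for expression level 18 members were higher and 4 lower. With libraries scaled by their totals and without TMM, a choice made after seeing the data, the median of all genes moved to -0.12, and 15 members were higher and 5 lower. Relative to the median of all genes the members' median was 0.29 under either scaling.

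**Figure D2:**
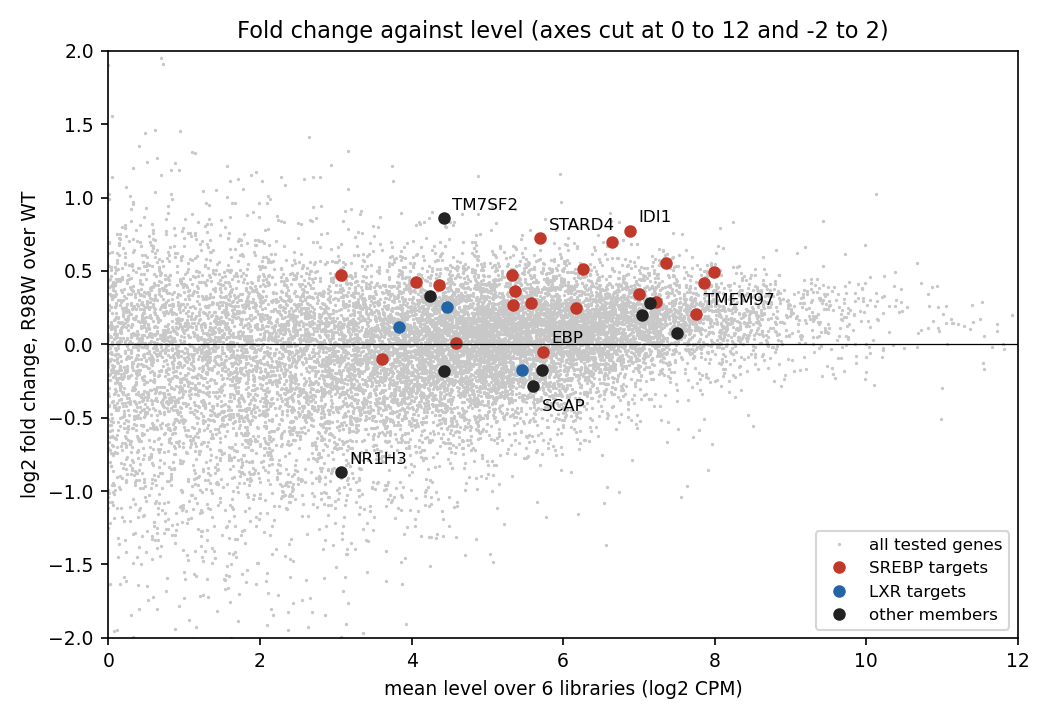
Log2 fold change of R98W over WT against the mean level over the 6 libraries in log2 CPM, with 14231 tested genes in grey and the members as large points (red SREBP targets, blue LXR targets, black the rest). A further 6482 genes lie outside the plotted ranges. Most red points lie above 0, while NR1H3 stands apart at the bottom.

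The mevalonate arm rose almost throughout: 7 of its 8 enzymes were higher and 0 were lower, beside 16.2% and 18.5% of all tested genes. The median log2 fold change of the arm was 0.37. IDI1 (ENSG00000067064, chromosome 10, 1039152 to 1049170, hg38), the isomerase that interconverts the isoprenoid diphosphate building blocks, was at 151, 148 and 148 CPM in R98W, against 89.8, 80.0 and 92.0 CPM in WT. Every R98W library was above every WT library, and the log2 fold change was 0.77 (adjusted p = 8.47e-08 by edgeR, SE 0.07). HMGCS1 (ENSG00000112972, chromosome 5, 43289395 to 43313512), the synthase that makes the precursor of mevalonate, was at 305, 303 and 288 CPM in R98W, against 226, 206 and 204 CPM in WT. The groups did not overlap, and the log2 fold change was 0.49 (adjusted p = 9.75e-06 by edgeR, SE 0.07). MVD, the decarboxylase that forms isopentenyl diphosphate, was at 22.8, 22.3 and 25.0 CPM in R98W, against 19.0, 16.4 and 17.7 CPM in WT. These values did not overlap either, at a log2 fold change of 0.40 (adjusted p = 0.00100 by edgeR, SE 0.08).

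Of the other 5 enzymes of the arm, 4 rose. Mevalonate kinase, MVK, rose by 0.42 on the log2 scale and GGPS1, which makes the geranylgeranyl diphosphate used for protein prenylation, by 0.33. The cytosolic thiolase ACAT2 rose by 0.27 and farnesyl diphosphate synthase, FDPS, by 0.25. PMVK, the phosphomevalonate kinase between MVK and MVD, was the exception, at 24.1 ± 3.4 CPM in R98W, with 24.0 ± 0.67 CPM in WT (SD, n = 3 each). Its log2 fold change was 0.01 (adjusted p = 0.966 by edgeR, SE 0.09) and turned to -0.11 without TMM. PMVK is also 1 of the 2 SREBP targets with a window but no CCAAT in it. The other, CYP51A1, rose by 0.47 on the log2 scale, while EBP and HSD17B7, which have CCAAT, were not called. A link between CCAAT and these changes was not tested. The counts of IDI1 over PMVK, a ratio chosen after the values were seen and free of library scaling, were 5.46, 7.03 and 6.29 in R98W and 3.73, 3.43 and 3.73 in WT. The FDPS call ended without WT replicate 3, at an edgeR adjusted p of 0.0694, and after the expression correction, at 0.0600. Without TMM the calls of ACAT2, GGPS1 and FDPS ended, at adjusted p of 0.111, 0.0652 and 0.157. ACAT2 overlaps TCP1 on the other strand, which rose by 0.35, MVK overlaps MMAB and GGPS1 overlaps ARID4B in the same way, and with the strand setting of the counting not given these reads cannot be told apart.

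All 3 enzymes that turn farnesyl diphosphate into lanosterol were higher in R98W, with a median log2 fold change of 0.41. Among all tested genes 16.2% were higher, and 40.4% of those at a mean over 64 CPM, the level of SQLE and FDFT1. SQLE (ENSG00000104549, chromosome 8, 124998497 to 125022283), the squalene epoxidase and a rate-limiting step of the chain, was at 199, 200 and 186 CPM in R98W, against 137, 125 and 137 CPM in WT. Its groups did not overlap, and the log2 fold change was 0.55 (adjusted p = 3.39e-06 by edgeR, SE 0.07). FDFT1, the squalene synthase that commits isoprenoids to sterol, was at 262, 267 and 271 CPM in R98W, against 197, 209 and 194 CPM in WT, a log2 fold change of 0.41 (adjusted p = 4.47e-05 by edgeR, SE 0.06). LSS, the cyclase that folds the epoxide into lanosterol, was at 45.4, 44.5 and 48.8 CPM in R98W, against 39.0, 33.9 and 35.03 CPM in WT. Its log2 fold change was 0.36 (adjusted p = 0.000842 by edgeR, SE 0.07), again with every R98W library above every WT library. All 3 stayed past the threshold in each alternative run.

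Of the 9 enzymes between lanosterol and cholesterol, 7 were higher and 0 lower, beside 16.2% and 18.5% of all tested genes. Their median log2 fold change was 0.35. MSMO1 (ENSG00000052802, chromosome 4, 165327623 to 165343160), the monooxygenase that strips methyl groups from the sterol ring, was at 124, 125 and 124 CPM in R98W, against 80.4, 68.7 and 80.7 CPM in WT. The R98W libraries were nearly identical and all above WT, at a log2 fold change of 0.70 (adjusted p = 5.02e-07 by edgeR, SE 0.07). TM7SF2, a sterol reductase, was at 29.1, 26.7 and 27.4 CPM in R98W, against 17.3, 14.8 and 13.7 CPM in WT, a log2 fold change of 0.86 (adjusted p = 7.67e-07 by edgeR, SE 0.09). TM7SF2 overlaps VPS51 on the same strand, which fell by 0.42 on the log2 scale. SC5D, a sterol desaturase, was at 47.2, 46.7 and 46.2 CPM in R98W, against 33.6, 30.1 and 37.4 CPM in WT, without overlap and with a log2 fold change of 0.47 (adjusted p = 0.00012 by edgeR, SE 0.08).

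CYP51A1, the lanosterol demethylase, rose by 0.47 on the log2 scale, DHCR7, a reductase at the end of the chain, by 0.35 and the dehydrogenase NSDHL by 0.28. LBR, the lamin B receptor of the inner nuclear membrane, has the same reductase activity as TM7SF2 and rose by 0.20 (adjusted p = 0.0467 by edgeR, SE 0.08). This call held in 7 of 16 alternative fits, and the adjusted p went up to 0.419. The counts of TM7SF2 over LBR were 0.201, 0.185 and 0.206 in R98W and 0.131, 0.137 and 0.108 in WT, without overlap. The pair was chosen after the values were seen, so this separation is no test. EBP, a sterol isomerase, was at 52.2 ± 0.28 CPM in R98W, with 54.0 ± 4.3 CPM in WT (SD, n = 3 each), a log2 fold change of -0.05 (adjusted p = 0.626 by edgeR, SE 0.07). HSD17B7, a ketosteroid reductase, was at 11.8 ± 0.32 CPM in R98W, with 12.7 ± 2.5 CPM in WT, a log2 fold change of -0.10 (adjusted p = 0.549 by edgeR, SE 0.12). With WT replicate 1 left out the HSD17B7 value was -0.26 (edgeR adjusted p = 0.0427), and without WT replicate 2 it was 0.01 (edgeR adjusted p = 0.951). HSD17B7 shares sequence with its pseudogene HSD17B7P2, which held 3.12 CPM in R98W and 2.92 CPM in WT, and CYP51A1 with CYP51A1P2 at 5.96 and 4.92 CPM in the same order, so these single values are uncertain. The NSDHL call ended without TMM, at an adjusted p of 0.0822.

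Summed over the 20 synthesis enzymes, the chain took 1775, 1776 and 1774 CPM in R98W, against 1350, 1293 and 1322 CPM in WT. In TPM, a scale per length on which the libraries are set to the same sum, the chain took 1407, 1352 and 1388 TPM in R98W, against 1181, 1133 and 1191 TPM in WT. The groups did not overlap on either scale, and the ratio was smaller in TPM. The median enzyme stood at 67.3, 57.5 and 63.3 TPM in R98W, against 63.5, 63.8 and 64.9 TPM in WT, with overlap. Levels between genes can be set side by side only per length, in TPM computed from the summed exons and averaged over the 6 libraries. On that scale TMEM97 led the members at 236 TPM, followed by HMGCS1 at 180, FDFT1 at 149, SQLE at 126 and MSMO1 at 114 TPM. The lowest were NR1H3 at 6.29, CYP51A1 at 7.77 and MVK at 8.54 TPM. NR1H3 held at least 540 counts in every library.

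**Figure D3:**
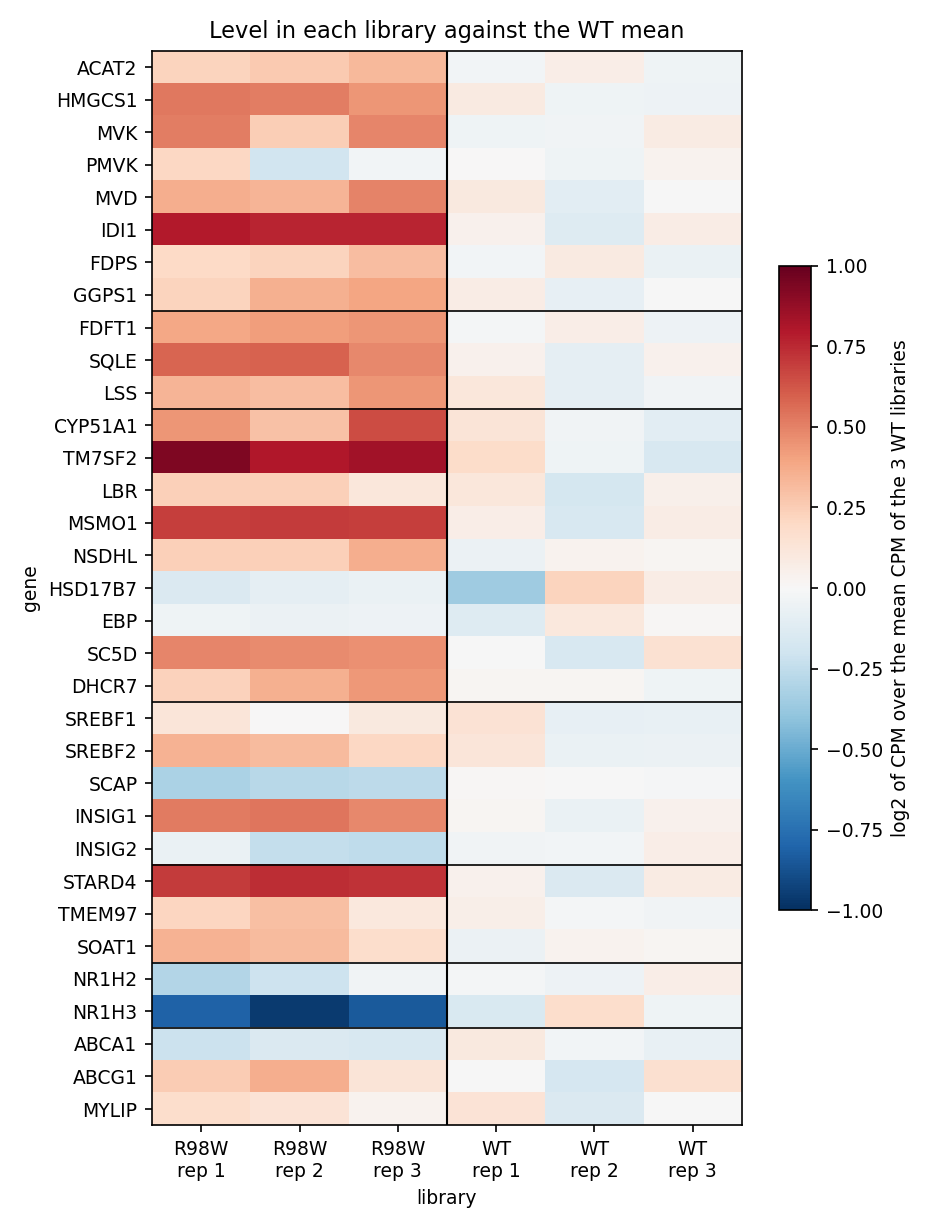
Level of each member in each library, as log2 of its CPM over the mean CPM of the 3 WT libraries, with R98W replicates on the left and WT replicates on the right. Red is above and blue below the WT mean. The 3 R98W columns look alike and are mostly red down to the SREBP control block, where SCAP is blue, and NR1H3 is the darkest blue row.

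Of the 5 SREBP factors and regulators, 2 were higher and 1 was lower, beside 16.2% higher and 18.5% lower over all tested genes. SREBF1, SREBF2 and INSIG1 had a mean over 64 CPM, the level at which 40.4% of all tested genes were higher. The counts are therefore no result about the list. INSIG1 (ENSG00000186480, chromosome 7, 155297776 to 155310235), itself an SREBP target and the feedback inhibitor that retains SCAP, was at 90.7, 91.6 and 88.2 CPM in R98W, against 63.95, 60.4 and 65.1 CPM in WT. The groups were far apart, with a log2 fold change of 0.51 (adjusted p = 5.90e-06 by edgeR, SE 0.06). SCAP (ENSG00000114650, chromosome 3, 47413694 to 47477126), the sterol-sensing escort, went the other way, at 42.9, 44.2 and 44.7 CPM in R98W, against 53.9, 53.5 and 53.1 CPM in WT. It fell by 0.28 on the log2 scale (adjusted p = 0.00223 by edgeR, SE 0.07) and was past the threshold in each alternative run. SREBF2, which encodes the SREBP form most tied to sterol synthesis, was at 171, 168 and 156 CPM in R98W, against 146, 129 and 130 CPM in WT, a log2 fold change of 0.29 (adjusted p = 0.00289 by edgeR, SE 0.07). The SREBF2 call ended after the expression correction, at an adjusted p of 0.0557.

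SREBF1 encodes the form more tied to fatty acid synthesis. It is a target of both SREBP and LXR and is counted in neither target list here. SREBF1 was at 187 ± 7.7 CPM in R98W, with 177 ± 16 CPM in WT (SD, n = 3 each). Its log2 fold change was 0.08 (adjusted p = 0.452 by edgeR, SE 0.07), and it turned to -0.04 without TMM and to -0.06 after the expression correction. INSIG2, the INSIG form that is not an SREBP target, was at 20.1 ± 1.5 CPM in R98W, with 22.8 ± 0.89 CPM in WT, a log2 fold change of -0.18 (adjusted p = 0.0912 by edgeR, SE 0.08). It passed after the GC correction, at -0.28 (adjusted p = 0.00583), and without TMM, at -0.30 (adjusted p = 0.00900). Ratios of counts, chosen after the values were seen, do not depend on scaling. INSIG1 over SCAP was 2.05 ± 0.071 in R98W and 1.18 ± 0.049 in WT, INSIG1 over INSIG2 was 4.51 ± 0.30 and 2.77 ± 0.09, and SREBF2 over SREBF1 was 0.885 ± 0.061 and 0.763 ± 0.012, each with R98W first and without overlap between the groups (SD, n = 3 each).

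All 3 genes of sterol transport and esterification were higher in R98W, beside 16.2% of all tested genes. SOAT1 and TMEM97 had a mean over 64 CPM, the level at which 40.4% of all tested genes were higher. With 3 genes the count is no result about the list. STARD4 (ENSG00000164211, chromosome 5, 111496033 to 111512590), a soluble carrier that shuttles cholesterol between membranes, was at 63.7, 65.4 and 64.7 CPM in R98W, against 40.4, 35.5 and 41.6 CPM in WT. The groups were well separated, at a log2 fold change of 0.72 (adjusted p = 4.19e-07 by edgeR, SE 0.07). SOAT1, the acyltransferase that makes cholesteryl esters for storage, was at 163, 160 and 145 CPM in R98W, against 123, 131 and 130 CPM in WT, a log2 fold change of 0.28 (adjusted p = 0.00260 by edgeR, SE 0.07). TMEM97, a sterol-responsive protein of the endoplasmic reticulum, was at 232, 246 and 215 CPM in R98W, against 207, 197 and 195 CPM in WT, a log2 fold change of 0.21 (adjusted p = 0.0201 by edgeR, SE 0.07). The TMEM97 call ended without R98W replicate 1, without R98W replicate 2 or without WT replicate 3, at adjusted p of 0.0603, 0.138 and 0.0996. After the expression correction SOAT1 stood at an adjusted p of 0.0680 and TMEM97 at 0.492, and without TMM at 0.0571 and 0.279.

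Of the 2 LXR receptors, 1 was lower and the other did not pass, where 18.5% of all tested genes were lower. The lower one, NR1H3, had a mean between 4 and 16 CPM, the level at which 31.1% of all tested genes were lower. With 2 genes the count is no result about the list. NR1H3 (ENSG00000025434, chromosome 11, 47248300 to 47269032), which encodes LXR alpha, was at 6.18, 5.58 and 6.07 CPM in R98W, against 9.77, 12.3 and 10.5 CPM in WT. Every R98W library was below every WT library, and the log2 fold change was -0.87 (adjusted p = 8.20e-06 by edgeR, SE 0.11), the largest size of change among the 33. NR1H3 overlaps ACP2 on the other strand, which fell by 0.62 on the log2 scale. NR1H2, which encodes LXR beta, was at 45.9, 48.6 and 54.8 CPM in R98W, against 55.3, 54.3 and 58.7 CPM in WT. The groups overlapped by 1 library each, and the log2 fold change of -0.17 (SE 0.07) did not pass, at an edgeR adjusted p of 0.0819. It passed without R98W replicate 3, after the expression correction and without TMM, at adjusted p of 0.0212, 0.0332 and 0.00660.

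Of the 3 LXR target genes, 1 was higher and 0 lower, with a median log2 fold change of 0.12. Over all tested genes 16.2% were higher and 18.5% lower, and with so few genes the counts are no result about the list. ABCA1 (ENSG00000165029, chromosome 9, 104781002 to 104928237), which loads cholesterol onto lipid-poor apolipoprotein and has the DR4 core shown above, was at 40.0, 42.1 and 41.4 CPM in R98W, against 49.6, 45.5 and 44.1 CPM in WT. All R98W libraries were below WT, but the log2 fold change of -0.17 (adjusted p = 0.0649 by edgeR, SE 0.07) did not pass. It was past the threshold in 4 of 16 alternatives, with values from -0.29 to -0.13. ABCG1, the partner transporter that exports cholesterol to formed lipoproteins, was at 24.1, 26.0 and 22.1 CPM in R98W, against 20.1, 18.0 and 22.5 CPM in WT. WT replicate 3 was above R98W replicate 3, and the log2 fold change was 0.25 (adjusted p = 0.0392 by edgeR, SE 0.09). The ABCG1 call ended without R98W replicate 1 or 2, without WT replicate 1 or 2, and without TMM, at adjusted p of 0.0886, 0.188, 0.0838, 0.196 and 0.297. MYLIP, a ubiquitin ligase that marks lipoprotein receptors for degradation, was at 15.4, 15.04 and 14.0 CPM in R98W, against 15.04, 12.3 and 13.6 CPM in WT, and its log2 fold change of 0.12 (adjusted p = 0.361 by edgeR, SE 0.09) did not pass.

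Set side by side, 18 of 21 SREBP targets were higher and 0 lower, against 16.2% and 18.5% of all tested genes. Their log2 fold changes ran from -0.10 to 0.77 with a median of 0.40, whereas the 3 LXR targets ran from -0.17 to 0.25. The lists differ in level: all 3 LXR targets had a mean under 64 CPM. Many SREBP targets had a mean over 64 CPM, where 40.4% of all tested genes were higher. SREBF1, a target of both factors that was not called (log2 fold change 0.08), is in neither list. The mean log2(CPM + 1) of the SREBP targets was 6.10, 6.08 and 6.12 in the R98W libraries, against 5.75, 5.71 and 5.75 in the WT libraries. That of the LXR targets was 4.68, 4.73 and 4.61 in R98W, against 4.69, 4.51 and 4.64 in WT, with overlap. The difference between the lists, which library scaling hardly touches, was 1.43 ± 0.08 in R98W and 1.13 ± 0.07 in WT (SD, n = 3 each). Its lowest R98W value, 1.35, lay above its highest WT value, 1.21. No p is given for these means, since the lists are small and their members were chosen with results of these data known. With WT replicate 1 left out, 18 SREBP targets were higher and 1 lower, and 0 LXR targets passed. After the expression correction 15 SREBP targets were higher and 0 lower, and the gap between the medians of the 2 lists was 0.15, against 0.28 before it.

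**Figure D4:**
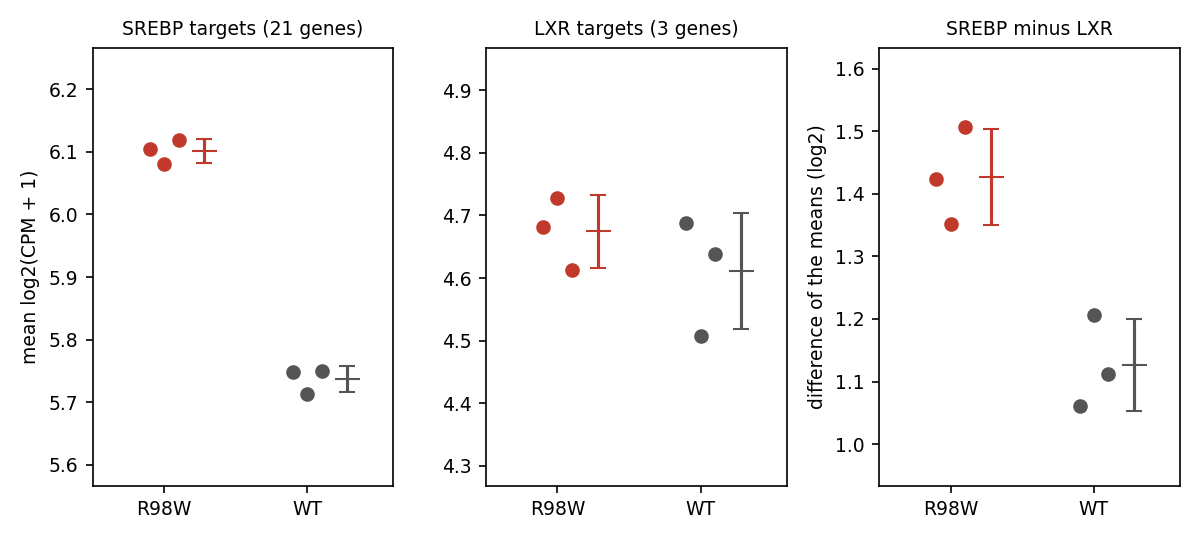
Mean log2(CPM + 1) of the 21 SREBP targets and of the 3 LXR targets in each library, and the difference of the 2 means, with R98W on the left of each panel. Points are libraries and bars are mean ± SD (n = 3). The panels have different ranges but the same scale per unit, the SREBP points of R98W lie near 6.1 and those of WT near 5.74, and the LXR points overlap.

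Genes that process SREBP or degrade sterol enzymes, written as a list of 12 outside the 33, were higher in 6 cases and lower in 1, beside 16.2% higher and 18.5% lower over all tested genes. All of the 6 except RNF139 had a mean over 64 CPM, the level at which 40.4% of all tested genes were higher. Among those higher, the ubiquitin ligases RNF139, MARCHF6 and RNF145 rose by 0.28, 0.24 and 0.22 on the log2 scale, AUP1 by 0.21 and SPRING1, needed for SREBP cleavage, by 0.20. ERLIN2, which forms part of a sterol-responsive complex of the endoplasmic reticulum, was at 47.8 CPM in R98W, with 77.7 CPM in WT, a log2 fold change of -0.70 (adjusted p = 1.14e-06 by edgeR, SE 0.08). Without TMM 0 of this list were higher and 2 lower, and after the expression correction 1 was higher and 2 were lower. The 6 higher became 3 without R98W replicate 1 and 2 without WT replicate 3.

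Genes that use isoprenoids for dolichol, ubiquinone and protein prenylation, 11 with ERG28 of sterol synthesis, were higher in 2 cases and lower in 2, which is near the 16.2% higher and 18.5% lower of all tested genes and no result about the list. RABGGTB and FNTA, subunits of the Rab geranylgeranyl and farnesyl transferases, rose by 0.38 and 0.31, while PGGT1B, of the other geranylgeranyl transferase, and PDSS2, of ubiquinone side chain synthesis, fell by 0.30 and 0.29. The 2 lower calls ended without R98W replicate 3 or without WT replicate 3. Of 14 further transport, storage and uptake genes, 4 were higher and 4 lower, and leaving out R98W replicate 2, WT replicate 1 or WT replicate 3 left 2 higher. Over all tested genes 16.2% were higher and 18.5% lower. After the expression correction 3 of the 14 were higher and 6 lower, and without TMM 2 were higher and 6 lower. NCEH1, which hydrolyses cholesteryl esters, rose by 0.39, the receptor LRP8 by 0.33, VLDLR by 0.24 and the lysosomal carrier NPC2 by 0.24. LRP1, a scavenging receptor of the same family, was at 56.2 CPM in R98W, with 92.0 CPM in WT, a log2 fold change of -0.71 (adjusted p = 1.32e-06 by edgeR, SE 0.08). The sterol transfer genes STARD3 and OSBPL2 fell by 0.34 and 0.28, and GRAMD1C, at 0.345 CPM in R98W, with 1.06 CPM in WT, fell by 1.62. The counts of LRP8 over LRP1, chosen after the values were seen, were 1.77 ± 0.09 in R98W and 0.861 ± 0.076 in WT (SD, n = 3 each). Those of NCEH1 over SOAT1, chosen in the same way, were 0.647 ± 0.036 and 0.602 ± 0.042, with overlap.

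Of 6 further LXR targets and oxysterol enzymes, 5 could be tested, 0 were higher and 1 was lower. Over all tested genes 16.2% were higher and 18.5% lower, so these counts are no result about the list. PLTP, a phospholipid transfer protein and LXR target, was at 0.286 CPM in R98W, with 0.883 CPM in WT, a log2 fold change of -1.63 (adjusted p = 0.000915 by edgeR, SE 0.34). CYP7B1, an oxysterol hydroxylase, had 0.992 CPM in R98W, with 1.39 CPM in WT, and its log2 fold change of -0.48 (adjusted p = 0.109 by edgeR, SE 0.23) did not pass. CH25H, which makes an oxysterol ligand, held 0 counts in all 6 libraries.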

How the data were processed

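RNA-seq libraries of A549 cells were analysed, 3 labelled R98W and 3 labelled WT by their titles. The deposited table holds raw counts per gene from the authors, 1 column per library, with no normalisation. Tools listed in the submitters' processing notes are HTSeq 0.11.3, HISAT2 2.1.0 and CASAVA 1.8, with the build hg38. The sources used here do not give the annotation, strand setting or filters. All 58721 identifiers matched GENCODE release 29 by script, which gave positions, exon lengths and overlaps.

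Counts were filtered with filterByExpr (minimum count 10, total 15), scaled by TMM and tested with edgeR 4.0.16 in R 4.3.3, with no covariates and Benjamini-Hochberg adjustment over 20713 genes. The code was tested on simulated data. The biological coefficient of variation was 10%. Members and lists were chosen with earlier results of these data known. Values per library are given for the 3 members with the smallest p in each role and for calls against their list. Other pathway genes are named if called or among the 2 smallest p. The alternatives used DESeq2 1.42.0 and limma 3.58.1, among others. The value of 1 further gene of these lists is not reported here.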

Additional observations from a re-analysis of the deposited data

How the results depend on the processing

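Of the members' results, 23 called higher became 20 to 23, and 2 called lower became 2 or 3, when each library was left out in turn. After the expression correction 4 members were lower, SCAP and NR1H3 with NR1H2 and ABCA1. Without TMM, 15 members were higher, 5 were lower and 1708 genes in all were higher (5343 lower), against 3364 and 3839 with TMM. At a threshold of 0.01, 2143 genes were higher. The SREBP target median of 0.40 was 0.34 after the expression correction, 0.44 after the GC correction and 0.29 without TMM, and ran from 0.35 to 0.41 with a library left out. The LXR target median of 0.12 was 0.0026 without TMM and ran from 0.041 to 0.183 with a library left out. KAT8 passed with no filter (log2 fold change 0.61, adjusted p = 6.72e-16) and under the replicate block (1.22, adjusted p = 0.000788), and stood at 0.06 with WT replicate 1 left out. The directions that turned belonged to 4 members that were not called, whose other alternatives are in the report. PMVK was at -0.0065 with upper quartile scaling, -0.0081 with at least 50 counts in 3 libraries, -0.00084 in limma-voom, -0.11 without TMM and -0.0019 under the replicate block, and ran from -0.10 to 0.10 with a library left out. HSD17B7 ran from -0.263 to 0.0128 with a library left out. EBP was at 0.029 after the GC correction, and SREBF1 at -0.062 after the expression correction and -0.040 without TMM. The causes were not tested.

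The replicate numbers are shared by both groups, but same-numbered libraries did not deviate together (correlations of -0.0392, -0.0369 and 0.00564). With the replicate number as a block 3205 genes were higher, 3678 lower, and 23 members higher and 2 lower. The order of levels differs without length: by CPM alone HMGCS1 led and TMEM97 was the third.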
